A study of Mus musculus with 48 samples.

Results

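The subject is 6 type I interferon response genes in immune cells sorted from mouse colon tumours: Isg15, Irf7, Zbp1, Bst2, Ifitm3 and Oasl2. They were listed by name, not by a threshold on their values, but with earlier results of these data known. Counts of these genes and of the related lists set beside shares of all genes are therefore descriptions. The genes are 6 of the 24537 in the count table, where all 6 were found. Tumours had been induced with AOM DSS, a carcinogen followed by a gut irritant that inflames the colon, and the cells were taken at day 85. The sort used the monocyte surface marker Ly6C and the antigen-presenting molecule MHC class II and gave 4 populations: Ly6Chi MHCIIhi, Ly6Chi MHCIIlo, Ly6Clo MHCIIhi and Ly6Clo MHCIIlo. Each was collected from mice labelled ctrl and from mice labelled ko, which the series describes as lacking the chemokine CCL17, so there were 8 groups, all of them with AOM DSS treatment. The series names ko mice that shared cages with controls and ko mice housed apart, but neither the housing of each sample nor the age of the mice is stated in the labels.

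Type I interferons are cytokines that cells release after sensing foreign or misplaced nucleic acid. They bind the receptor made of Ifnar1 and Ifnar2, and the kinases Jak1 and Tyk2 then activate transcription factors that bind an interferon-stimulated response element (ISRE) in target genes. The 6 genes are targets of this path: Irf7 is a transcription factor that drives further interferon production, Zbp1 is a sensor of Z-form nucleic acid that can start cell death, Isg15 is a ubiquitin-like protein attached to other proteins, Oasl2 belongs to the oligoadenylate synthetase family, Bst2 (tetherin) holds budding virus particles at the cell surface, and Ifitm3 blocks fusion of virus with endosomal membranes. Interferon gamma acts through a receptor of its own, and many targets respond to both cytokines. Monocytes are known as strong responders to type I interferon, and in the gut they enter the tissue as Ly6Chi cells and can mature into Ly6Clo MHCIIhi macrophages.

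Of the 6 genes, 5 had a promoter window in the RefSeq table for GRCm38.p6 (250 bases before to 50 bases after the annotated start), all except Zbp1. The ISRE was searched on both strands as GAAANNGAAA, and 3 of the 5 windows held it: Isg15, Bst2 and Ifitm3. Of all 32851 windows in the table, 3.44% held at least 1 match. The 3 sequences are shown because these genes carry the same letters and yet did not share 1 pattern across the populations. Capitals mark the ISRE letters, and each sequence is written on the gene's own strand, 5′ to 3′. The Isg15 stretch is chr4:156200819-156200968 and the Bst2 stretch is chr8:71537473-71537622, both on the minus strand and ending at the base before the start. The Ifitm3 stretch, chr7:141010716-141010742 on the minus strand, lies just downstream of the start, from base 3 to base 29.
Isg15: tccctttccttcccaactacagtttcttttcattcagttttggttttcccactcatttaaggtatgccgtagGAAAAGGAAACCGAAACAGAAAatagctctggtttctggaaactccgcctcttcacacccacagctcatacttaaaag
Bst2: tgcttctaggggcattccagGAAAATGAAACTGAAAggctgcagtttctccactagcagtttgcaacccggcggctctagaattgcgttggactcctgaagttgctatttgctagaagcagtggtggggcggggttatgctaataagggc
Ifitm3: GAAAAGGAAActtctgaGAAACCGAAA
The Isg15 run held 3 overlapping matches, beginning 78, 72 and 66 bases before the start. The Bst2 run held 2, beginning 130 and 124 bases before it. Ifitm3 held 2 separate matches, beginning at bases 3 and 20 after the start. The gamma-activated site, searched as TTCNNNGAA on both strands, is a letter pattern known from interferon gamma targets. It occurred in 8.3% of all windows, once in Bst2, where it overlapped the beginning of the ISRE run, and once in Ifitm3, where it overlapped the beginning of the second ISRE match. No ISRE or gamma-activated letters were found in the Irf7 and Oasl2 windows. A match of letters is a description and does not show that a factor was bound.

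The table gives whole-number counts from bulk 3′ sequencing of poly(A) RNA for 48 libraries. Libraries labelled as repeats of 1 replicate were added, and 1 library of 8409 counts was left out, which left 39 replicates: 7 of Ly6Chi MHCIIhi (3 ctrl and 4 ko), 8 of Ly6Chi MHCIIlo (4 and 4), 16 of Ly6Clo MHCIIhi (8 and 8) and 8 of Ly6Clo MHCIIlo (4 and 4). Replicate totals ran from 34362 to 891461 counts, and levels are in CPM (counts scaled to a common total, after each replicate's total is multiplied by its TMM factor, a correction for composition that ran from 0.875 to 1.32). On that scale 3 counts, the limit that a count of 0 allows, stood for 3.61 to 66.2 CPM. The labels do not say that replicates came from separate mice, and the p-values measure only the spread between these samples. By group means the gates matched their genes: mean Ly6c2 was 495 to 1285 CPM in the Ly6Chi groups and 24.8 to 49.4 CPM in the Ly6Clo groups, and mean Cd74, the class II chaperone, was 6536 to 14030 CPM in the MHCIIhi groups and 1685 to 2484 CPM in the MHCIIlo groups. Single replicates overlapped for Cd74, since Ly6Chi MHCIIhi ctrl ran from 2891 to 10890 CPM and Ly6Clo MHCIIlo ko reached 3258 CPM. Ccl17 gave 528 counts over the 19 ctrl replicates and 30 counts over the 20 ko replicates. Of the ctrl counts, 510 came from Ly6Clo MHCIIhi, and in the other populations both genotypes had 1 to 14 counts a group, too few to check the label. Ly6Chi MHCIIhi ctrl replicate 1 stood apart, with a summed level of 239100 CPM for 5 red cell genes and 48120 CPM for 8 neutrophil genes, and is part of the Ly6Chi MHCIIhi means below. Without it those means were 278 CPM for Isg15, 112.9 CPM for Irf7, 304 CPM for Zbp1, 143.6 CPM for Bst2, 3521 CPM for Ifitm3 and 38.4 CPM for Oasl2 (n = 6). In 3 populations every ctrl library carried a barcode rich in A and T and every ko library a barcode rich in G and C, so barcode and genotype cannot be told apart there.

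Mean levels of Isg15, Irf7, Zbp1 and Ifitm3 were highest in a Ly6Chi population and lowest in Ly6Clo MHCIIlo cells, while Bst2 was higher in the Ly6Clo than in the Ly6Chi populations. Between the MHCIIlo populations, Ly6Clo minus Ly6Chi, 5 of the 6 genes passed edgeR's quasi-likelihood test (Benjamini-Hochberg adjusted p under 0.05 over all genes), where 37.4% of the 4336 genes tested passed. Zbp1, Ifitm3, Irf7 and Isg15 were lower in the Ly6Clo cells and Bst2 was higher. The same split of 4 lower and 1 higher was found among ctrl replicates alone and among ko replicates alone, where the barcode class was constant, and by DESeq2. Within Ly6Clo MHCIIlo cells alone, Irf7 and Zbp1 had too few counts for the test. They entered the comparisons with Ly6Clo MHCIIlo through the other cells, where they were higher, so the filter on low counts favoured that direction. In bulk samples, fewer cells of a type and less RNA per cell cannot be told apart.

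**Figure D1:**
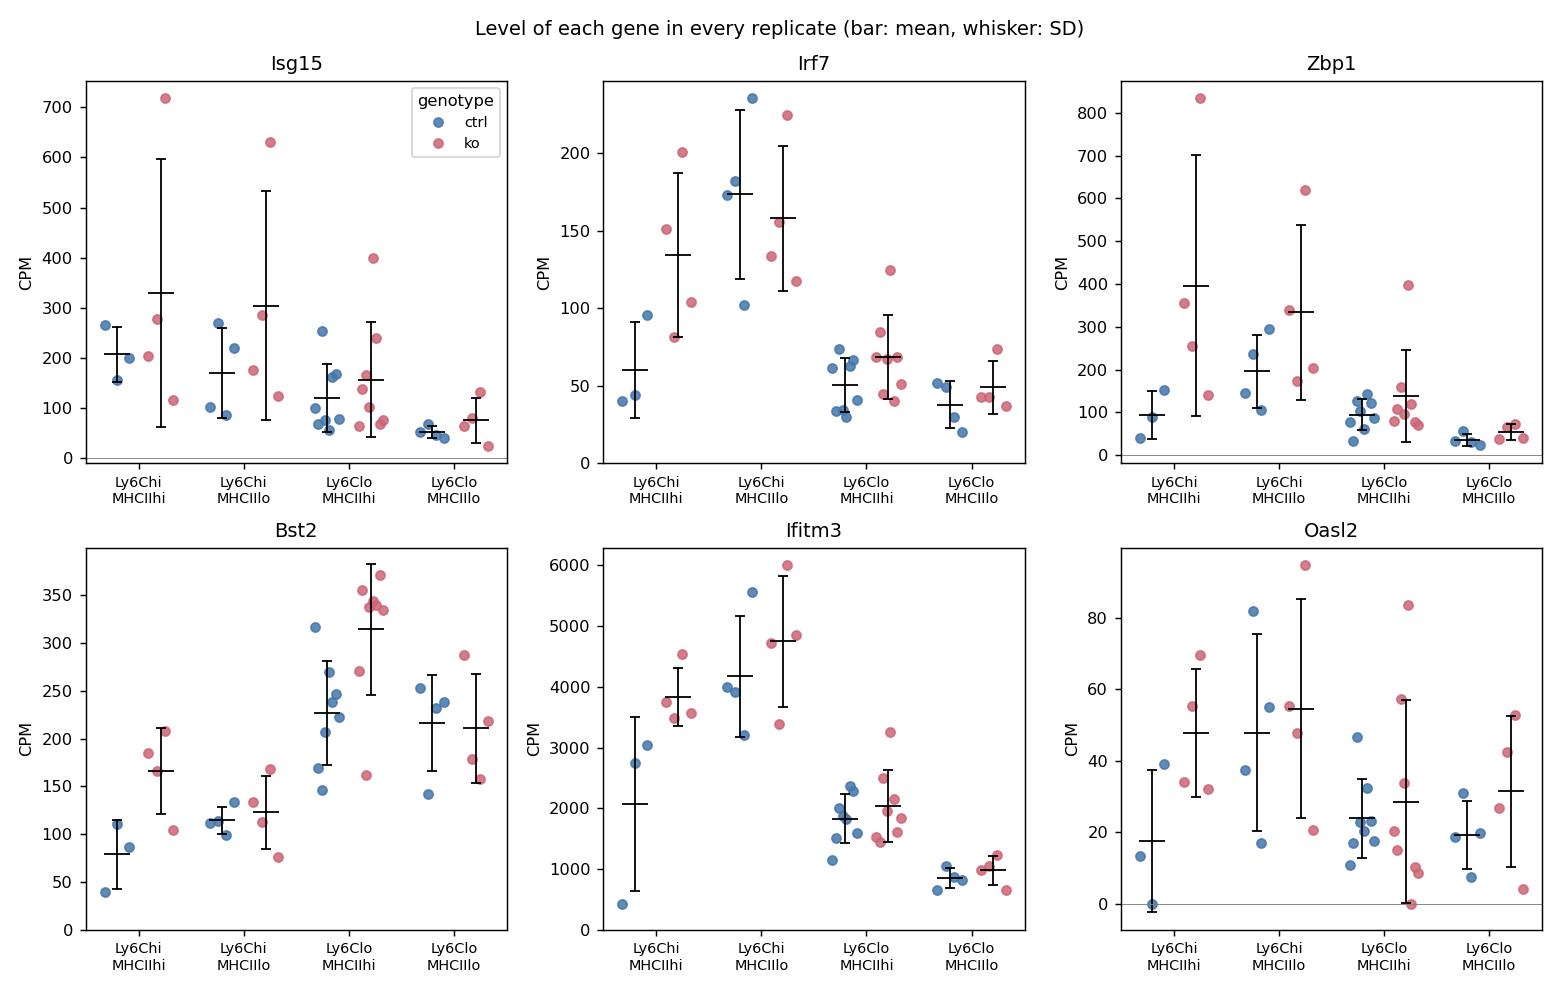
Level of each gene in CPM for every replicate (points), by population and genotype (ctrl blue, ko red), with the group mean (bar) and SD (whisker). Ifitm3, Zbp1 and Irf7 lie highest in Ly6Chi MHCIIlo or Ly6Chi MHCIIhi cells and lowest in Ly6Clo MHCIIlo cells, and Bst2 lies highest in the Ly6Clo populations.

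Irf7, the transcription factor of the group, lies on chromosome 7 (GRCm38, 141262706 to 141266481, minus strand). Its level was 166 ± 48.0 CPM (SD, n = 8) in Ly6Chi MHCIIlo, 102 ± 57.5 CPM (n = 7) in Ly6Chi MHCIIhi, 59.5 ± 23.9 CPM (n = 16) in Ly6Clo MHCIIhi and 43.2 ± 16.1 CPM (n = 8) in Ly6Clo MHCIIlo. All 8 Ly6Clo MHCIIlo replicates (19.9 to 73.7 CPM) lay below all 8 Ly6Chi MHCIIlo replicates (102 to 236 CPM), and the log2 difference was -1.78 ± 0.24 (SE), a 3.44-fold lower level (edgeR adjusted p = 1.691e-06). Ly6Clo MHCIIhi was also below Ly6Chi MHCIIlo, with 15 of its 16 replicates under the whole Ly6Chi MHCIIlo range (log2 difference -1.45 ± 0.19, edgeR adjusted p = 1.772e-07). Neighbours in the order were less clear. Between Ly6Clo MHCIIhi and Ly6Clo MHCIIlo the log2 difference was 0.39 ± 0.23 (edgeR adjusted p = 0.208), and between Ly6Chi MHCIIhi and Ly6Chi MHCIIlo it was -0.55 ± 0.26 (edgeR adjusted p = 0.309).

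Zbp1, the nucleic acid sensor, lies on chromosome 2 (173206612 to 173218923, minus strand). It reached 266 ± 271 CPM (n = 7) in Ly6Chi MHCIIhi and 265 ± 163 CPM (n = 8) in Ly6Chi MHCIIlo, against 116 ± 81.4 CPM (n = 16) in Ly6Clo MHCIIhi and 45.1 ± 17.9 CPM (n = 8) in Ly6Clo MHCIIlo. The Ly6Chi populations could not be ordered (log2 difference MHCIIhi minus MHCIIlo -0.08 ± 0.38, edgeR adjusted p = 0.969, and 0.03 without Ly6Chi MHCIIhi ctrl replicate 1). Every Ly6Clo MHCIIlo replicate (24.8 to 73.7 CPM) lay below every Ly6Chi MHCIIlo replicate (106 to 621 CPM), a 5.24-fold lower level (log2 difference -2.39 ± 0.29, edgeR adjusted p = 4.462e-07). Zbp1 was also higher in Ly6Clo MHCIIhi than in Ly6Clo MHCIIlo, by 1.30 ± 0.33 on the log2 scale (edgeR adjusted p = 0.00429), with 13 of 16 replicates above the whole Ly6Clo MHCIIlo range.

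Isg15, the ubiquitin-like modifier, lies on chromosome 4 (156199424 to 156200818, minus strand). Its levels were 276 ± 203 CPM in Ly6Chi MHCIIhi, 236 ± 176 CPM in Ly6Chi MHCIIlo, 138 ± 93.2 CPM in Ly6Clo MHCIIhi and 63.0 ± 32.8 CPM in Ly6Clo MHCIIlo, with the same n as above. Ly6Clo MHCIIlo was below Ly6Chi MHCIIlo by 3.35-fold (log2 difference -1.74 ± 0.35, edgeR adjusted p = 0.000349) and below Ly6Chi MHCIIhi by 4.16-fold (log2 difference -2.06 ± 0.37, edgeR adjusted p = 0.000451). In each of these comparisons 7 of 8 Ly6Clo MHCIIlo replicates lay under the whole Ly6Chi range. The differences that involve Ly6Clo MHCIIhi passed only narrowly. They were -0.80 ± 0.33 against Ly6Chi MHCIIlo (edgeR adjusted p = 0.0482), -1.07 ± 0.36 against Ly6Chi MHCIIhi (edgeR adjusted p = 0.0407) and 0.99 ± 0.37 against Ly6Clo MHCIIlo (edgeR adjusted p = 0.0458). Leaving out single replicates ended these calls in 15 of 24, 11 of 23 and 10 of 24 cases.

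Oasl2, a member of the oligoadenylate synthetase family, lies on chromosome 5 (114896936 to 114912234, plus strand) and rested on few counts. Its levels were 51.2 ± 27.2 CPM in Ly6Chi MHCIIlo, 34.8 ± 23.6 CPM in Ly6Chi MHCIIhi, 26.2 ± 21.0 CPM in Ly6Clo MHCIIhi and 25.3 ± 16.5 CPM in Ly6Clo MHCIIlo, and it was at 0 in 1 replicate of Ly6Chi MHCIIhi and 1 of Ly6Clo MHCIIhi. The populations overlapped in every comparison. Only Ly6Clo MHCIIhi minus Ly6Chi MHCIIlo passed (log2 difference -0.88 ± 0.36, edgeR adjusted p = 0.0448), and that call was lost in 16 of the 24 cases in which 1 replicate was left out. Ly6Clo MHCIIlo minus Ly6Chi MHCIIlo gave nearly the same difference, -0.89 ± 0.41, and did not pass (edgeR adjusted p = 0.0913). Reads from its relative Oasl1 may be split with it, since the counting step is not known.

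Ifitm3, the endosomal membrane protein, lies on chromosome 7 (141009586 to 141010770, minus strand) and gave the most counts of the 6. Its level was 4458 ± 1007 CPM in Ly6Chi MHCIIlo, 3078 ± 1299 CPM in Ly6Chi MHCIIhi, 1931 ± 505 CPM in Ly6Clo MHCIIhi and 917 ± 202 CPM in Ly6Clo MHCIIlo. All 8 Ly6Clo MHCIIlo replicates (653 to 1227 CPM) lay below all 8 Ly6Chi MHCIIlo replicates (3199 to 6010.1 CPM), a 4.32-fold lower level (log2 difference -2.11 ± 0.15, edgeR adjusted p = 8.1e-11). Ifitm3 was higher in Ly6Clo MHCIIhi than in Ly6Clo MHCIIlo by 0.95 ± 0.15 (edgeR adjusted p = 1.994e-05), and 15 of 16 replicates lay above the whole Ly6Clo MHCIIlo range. Only the Ly6Chi populations, whose log2 difference was -0.52 ± 0.26 for MHCIIhi minus MHCIIlo, did not pass (edgeR adjusted p = 0.345). Without Ly6Chi MHCIIhi ctrl replicate 1 that difference was -0.32 (edgeR adjusted p = 0.209). Its close relatives Ifitm1, Ifitm2 and Ifitm6 may share reads with it.

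Bst2, the surface tether, lies on chromosome 8 (71534255 to 71537456, minus strand) and ran the other way between Ly6Clo and Ly6Chi cells. It stood at 271 ± 74.7 CPM in Ly6Clo MHCIIhi and 213 ± 49.8 CPM in Ly6Clo MHCIIlo, against 129 ± 59.9 CPM in Ly6Chi MHCIIhi and 119 ± 27.2 CPM in Ly6Chi MHCIIlo. It was 2.26-fold higher in Ly6Clo MHCIIhi than in Ly6Chi MHCIIlo (log2 difference 1.175 ± 0.15, edgeR adjusted p = 1.648e-07), and 14 of 16 replicates lay above all 8 of the latter. In Ly6Clo MHCIIlo it was 2.02-fold higher than in Ly6Chi MHCIIlo (log2 difference 1.01 ± 0.17, edgeR adjusted p = 3.341e-05), with 6 of 8 replicates above that range. By MHC class II it did not pass on either side: 0.21 ± 0.14 in Ly6Clo cells (edgeR adjusted p = 0.284) and 0.17 ± 0.23 in Ly6Chi cells (edgeR adjusted p = 0.798).

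**Figure D2:**
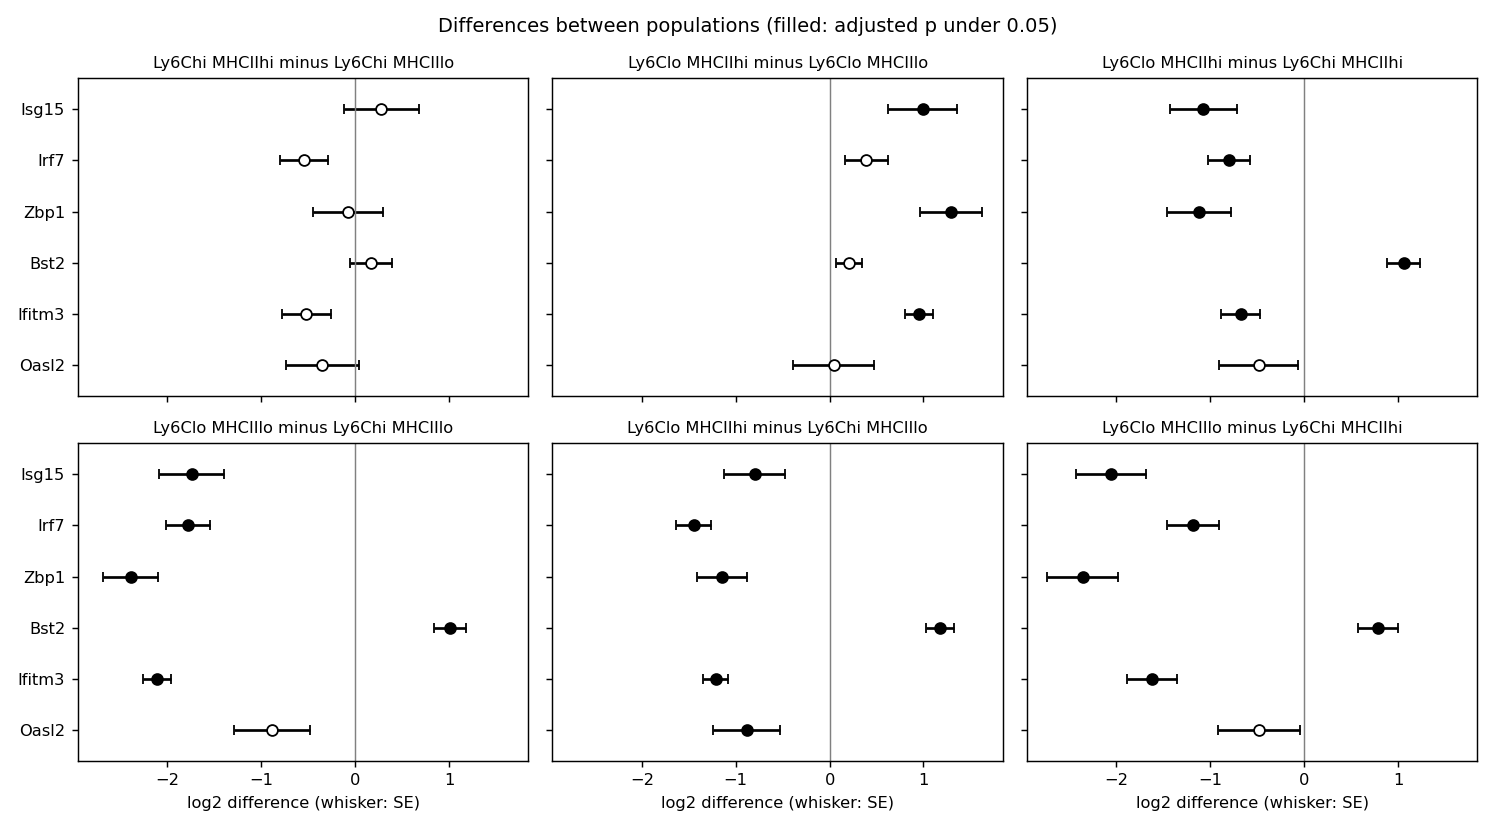
Log2 difference (x axis) with its SE for each gene in the 6 comparisons of populations, with filled points for an edgeR adjusted p under 0.05. Bst2 sits to the right of 0 in all 4 comparisons of Ly6Clo with Ly6Chi cells, where the other 5 genes sit to the left.

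Bst2 stood apart from the other genes in the other 3 comparisons of Ly6Clo with Ly6Chi cells as well. All 6 genes passed in Ly6Clo MHCIIhi minus Ly6Chi MHCIIlo, 5 lower and Bst2 higher (background 42.3% of 5702 genes, DESeq2 5 of 6). That count was 4 among ctrl replicates alone, 4 among ko replicates alone and 4 with only libraries of at least 100000 counts. Isg15 and Oasl2 were lost each time. In Ly6Clo MHCIIlo minus Ly6Chi MHCIIhi 5 passed, 4 lower and Bst2 higher (23.4% of 4175 genes), and 1, Isg15, among ctrl replicates alone. The Bst2 call there was lost without Ly6Chi MHCIIhi ctrl replicate 4 (edgeR adjusted p = 0.0546). It was also lost among ctrl replicates alone (1.395, edgeR adjusted p = 0.072) and among ko replicates alone (0.5423, edgeR adjusted p = 0.1087). In Ly6Clo MHCIIhi minus Ly6Chi MHCIIhi 5 passed (15.8% of 5541 genes): Irf7 at -0.80 ± 0.22 (edgeR adjusted p = 0.0130), Zbp1 at -1.12 ± 0.34 (edgeR adjusted p = 0.0244), Ifitm3 at -0.68 ± 0.21 (edgeR adjusted p = 0.0253), Isg15, and Bst2 at 1.06 ± 0.18 (edgeR adjusted p = 9.354e-05). That last count fell to 1, Bst2, without Ly6Chi MHCIIhi ko replicate 3, and to 2 without ctrl replicate 4. It was 1 among ctrl replicates alone. Without Ly6Chi MHCIIhi ctrl replicate 1, the replicate with high red cell and neutrophil sums, the Ifitm3 difference from Ly6Chi MHCIIhi was -0.87 in Ly6Clo MHCIIhi and -1.83 in Ly6Clo MHCIIlo (edgeR adjusted p = 4.519e-05 and 1.229e-09), and 4 and 5 genes passed. The Isg15 call in Ly6Clo MHCIIhi minus Ly6Chi MHCIIhi was the one lost (-0.99, edgeR adjusted p = 0.0692). With replicate numbers as a block 3 passed in that comparison, Irf7 and Ifitm3 being lost. In Ly6Clo MHCIIhi minus Ly6Clo MHCIIlo 3 passed, all higher (Isg15, Zbp1 and Ifitm3, background 25.5% of 4817 genes). In Ly6Chi MHCIIhi minus Ly6Chi MHCIIlo none passed by edgeR or DESeq2 (background 2.86% of 4756 genes), and 1, Irf7, had an unadjusted p under 0.05.

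The populations differed in other cell markers as well, and the part these play in the results was not tested. Summed over 8 genes, monocyte markers were highest in Ly6Chi MHCIIlo (6023 to 9618 CPM) and lowest in the Ly6Clo populations (952.4 to 2037 CPM), with Ly6Chi MHCIIhi at 1737 to 7249 CPM. The 10 macrophage genes ran the other way, at 17900 to 49550 CPM in the Ly6Clo and 3216 to 13010 CPM in the Ly6Chi populations. Neutrophil genes followed MHC class II, at 5318 to 27970 CPM in the MHCIIlo populations against 400.9 to 1923 CPM in Ly6Clo MHCIIhi, and at a median of 841.5 CPM in Ly6Chi MHCIIhi. Conventional dendritic cell genes had a median sum of 360.7 CPM in Ly6Clo MHCIIhi against 58.02 to 106.1 CPM in the other populations. B and plasma cell genes varied widely within every population, from 48.03 to 27180 CPM in Ly6Clo MHCIIhi and up to 13630, 5949 and 4016 CPM in Ly6Chi MHCIIhi, Ly6Chi MHCIIlo and Ly6Clo MHCIIlo. Plasmacytoid dendritic cells, known as strong makers of type I interferon, carry Bst2 on their surface. Their 8 measured marker genes of 9 summed to medians of 88.4 to 117 CPM in the 4 populations, and Siglech, their defining surface lectin, was at 0 in 5 of 8 groups and at 2 to 4 counts in each of the other 3.

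The series compares ko with ctrl mice, and none of the 6 genes passed for ko minus ctrl by edgeR or DESeq2 in any population with the filter on low counts. In Ly6Chi MHCIIhi 0 of 5 tested genes passed by edgeR or DESeq2, with 1 at an unadjusted p under 0.05 (background 0% of 3509 genes, and 6.98% at an unadjusted p under 0.05). In Ly6Chi MHCIIlo it was 0 of 6 by both tools, with 0 at an unadjusted p under 0.05 (0.0756% of 3966 genes, and 11.2% unadjusted). In Ly6Clo MHCIIhi it was 0 of 6 by both tools, with 2 at an unadjusted p under 0.05 (0% of 5660 genes, and 5.23% unadjusted), and in Ly6Clo MHCIIlo 0 of 3 by both tools, with 0 at an unadjusted p under 0.05 (0.0314% of 3182 genes, and 4.27% unadjusted). The fitted difference was above 0 in 5 of 5, 5 of 6, 6 of 6 and 2 of 3 genes, beside a median difference over all genes tested of 0.01341, -0.01952, -0.009614 and 0.01331. Since the same replicates give all 6 values, these signs are not independent of each other. Some of them turned when 1 replicate was left out, and in 3 populations genotype and barcode class cannot be told apart.

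**Figure D3:**
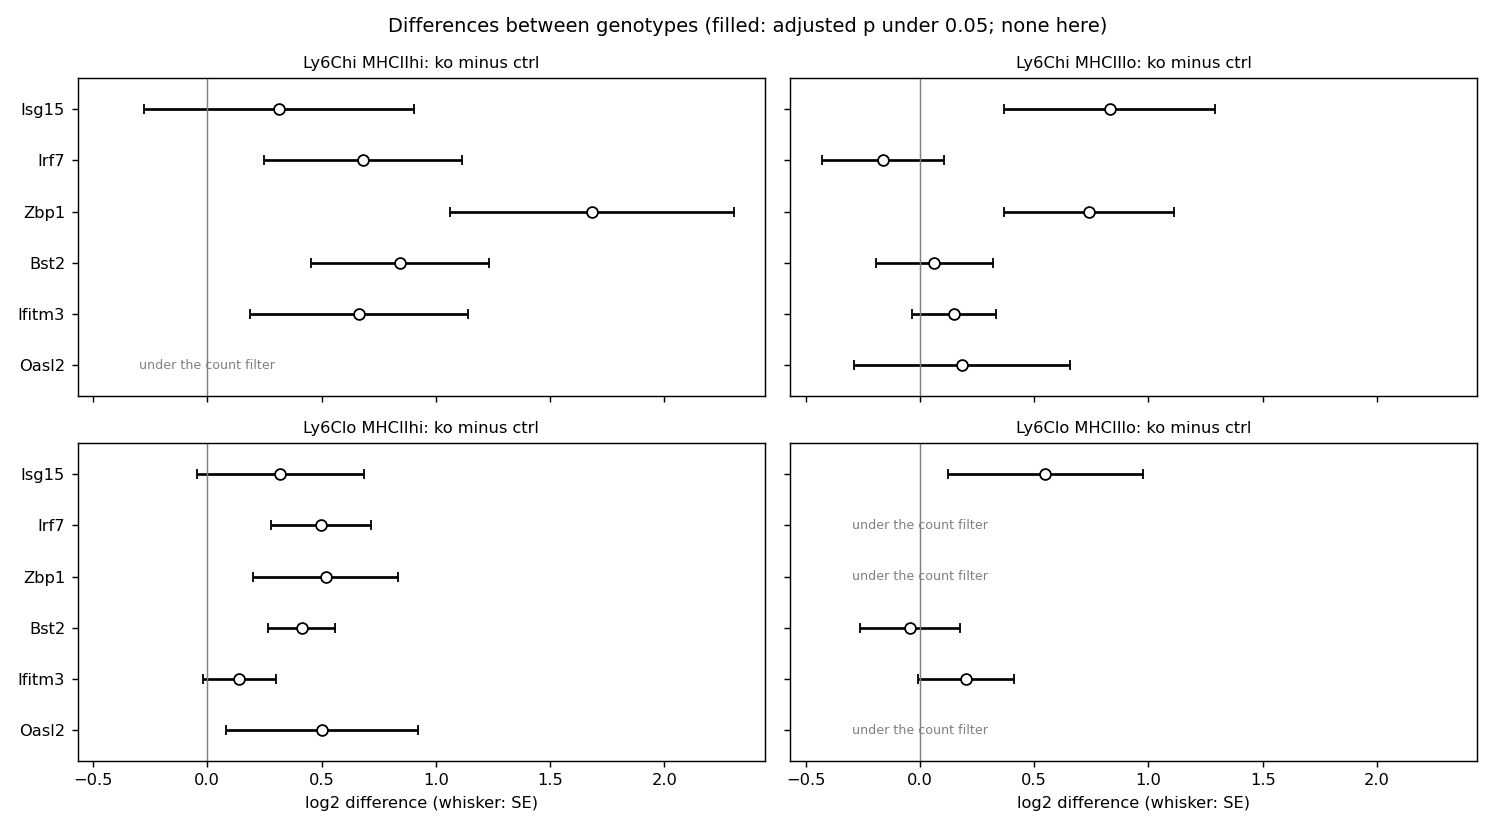
Log2 difference ko minus ctrl (x axis) with its SE for each gene in the 4 populations; filled points would mark an edgeR adjusted p under 0.05, and genes under the count filter are written as such. Most points lie right of 0, with Zbp1 in Ly6Chi MHCIIhi farthest at 1.68, and no point is filled.

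In Ly6Chi MHCIIhi cells Zbp1 stood at 39.8, 88.3 and 152 CPM in ctrl replicates 1, 3 and 4 and at 355, 255, 834 and 140.3 CPM in ko replicates 1 to 4. Of the ko replicates, 3 lay above all ctrl replicates and replicate 4 lay within their range. The log2 difference was 1.68 ± 0.62 (edgeR adjusted p = 0.709), and without the filter on low counts it was 1.85 and passed (edgeR adjusted p = 0.00233), when 112 other genes passed as well. Ifitm3 stood at 424, 2738 and 3046 CPM in ctrl and at 3742, 3492, 4532 and 3575 CPM in ko, with all ko replicates above all ctrl replicates. Among these genes it was the only such case in any population. With 4 and 3 replicates only 35 splits exist, and the share of all genes that separated in this way is not given here. The Ifitm3 log2 difference was 0.66 ± 0.48 (edgeR adjusted p = 0.777), and 0.24 without ctrl replicate 1, the replicate with the high red cell and neutrophil sums. Bst2 stood at 39.8, 110.4 and 87.0 CPM in ctrl and at 185, 166, 208 and 104 CPM in ko (0.84 ± 0.39, edgeR adjusted p = 0.709), and only 1 ko replicate lay within the ctrl range. Irf7 stood at 39.8, 44.2 and 95.7 CPM in ctrl and at 151, 81.2, 201 and 104 CPM in ko (0.68 ± 0.43, edgeR adjusted p = 0.745). Isg15 overlapped more widely, at 265, 155 and 200.2 CPM in ctrl and at 204, 277, 718 and 116 CPM in ko (0.31 ± 0.59, edgeR adjusted p = 0.954, and 0.65 without ctrl replicate 1). Oasl2 was under the count filter there, with 1, 0 and 9 counts in ctrl, and its mean log2(CPM + 1) was 2.48 higher in ko (two-sided exact permutation p = 0.0857, adjusted over 4 such tests 0.286, the smallest possible p being 0.0286).

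In Ly6Chi MHCIIlo cells the ranges of the genotypes overlapped for all 6 genes. Isg15 stood at 102, 269, 85.3 and 220.0 CPM in ctrl replicates 1 to 4 and at 176, 286, 631 and 123 CPM in ko replicates 1 to 4 (log2 difference 0.83 ± 0.46, edgeR adjusted p = 0.52). Zbp1 stood at 146, 237, 106 and 295 CPM in ctrl and at 339, 173, 621 and 203 CPM in ko (0.74 ± 0.37, edgeR adjusted p = 0.472). For both, ko replicate 3 was the highest and 2 of 4 ko replicates lay above all ctrl replicates. Irf7 was the 1 gene with a fitted difference below 0, at 173, 182, 102 and 236 CPM in ctrl and 134, 156, 224 and 118 CPM in ko (-0.16 ± 0.27, edgeR adjusted p = 0.855). Ifitm3, Bst2 and Oasl2 differed by 0.15, 0.06 and 0.18.

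In Ly6Clo MHCIIhi cells, the population with 8 replicates of each genotype and with nearly all the Ccl17 counts, Bst2 was at 147, 230.1 and 317 CPM (lowest, median and highest) in ctrl and at 162, 339 and 371 CPM in ko. Of the 8 ko replicates, 6 lay above all ctrl replicates, and the log2 difference was 0.41 ± 0.15 (edgeR adjusted p = 0.888, unadjusted p = 0.00997). Irf7 was at 29.6, 50.9 and 73.3 CPM in ctrl and at 39.9, 68.0 and 125 CPM in ko (0.50 ± 0.22, edgeR adjusted p = 0.923). Zbp1 ran from 33.8 to 143 CPM in ctrl and from 69.6 to 397 CPM in ko (0.52 ± 0.32, edgeR adjusted p = 0.951). Isg15, Ifitm3 and Oasl2 overlapped over most of their ranges, with differences of 0.32, 0.14 and 0.50 and edgeR adjusted p from 0.974 to 0.985. Within the replicates of this population that had libraries of both barcode classes, 0 of the 6 genes passed between the classes by edgeR or DESeq2, with 0 at an unadjusted p under 0.05 (background 1.8% of 4945 genes).

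In Ly6Clo MHCIIlo cells only Isg15, Bst2 and Ifitm3 had enough counts for the test. Isg15 stood at 51.5, 67.9, 44.8 and 39.7 CPM in ctrl and at 63.9, 80.1, 132 and 24.3 CPM in ko (0.55 ± 0.43, edgeR adjusted p = 0.999). Bst2 stood at 253, 142, 232 and 238 CPM in ctrl and at 287, 179, 158 and 219 CPM in ko (-0.04 ± 0.22, edgeR adjusted p = 0.999). Ifitm3 stood at 660.0, 1055, 871 and 824 CPM in ctrl and at 990.2, 1056, 1227 and 653 CPM in ko (0.20 ± 0.21, edgeR adjusted p = 0.999). The genotypes overlapped for each of these. For Irf7, Zbp1 and Oasl2 the mean log2(CPM + 1) was 0.41, 0.60 and 0.39 higher in ko, with two-sided exact permutation p of 0.314, 0.143 and 0.629. A test of whether ko minus ctrl differed between the 4 populations passed for 0 of the 6 genes by edgeR or DESeq2, with 0 at an unadjusted p under 0.05 and edgeR adjusted p from 0.824 to 0.994 (background 0.0663% of 6032 genes).

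The highest replicate of a group was often the same one for several genes. The share of all genes for which that replicate was highest is not given here, so these counts are descriptions. Ko replicate 3 was the highest ko replicate for all 6 genes in Ly6Chi MHCIIhi and in Ly6Chi MHCIIlo and for 5 of 6 in Ly6Clo MHCIIlo, where ko replicate 1 led for Bst2. The total of ko replicate 3 in Ly6Chi MHCIIhi was the lowest of that group, at 132799 counts. In Ly6Clo MHCIIhi ko replicate 5 was the highest for 5 of 6, and ko replicate 7 led for Bst2. Among ctrl replicates, replicate 4 was the highest for 4 of 6 genes in each Ly6Chi population and replicate 2 for 4 of 6 in Ly6Clo MHCIIlo. The labels do not say whether equal numbers in different populations are the same mouse. In the Ly6Chi populations and Ly6Clo MHCIIhi ko replicates 3, 3 and 5 also had the highest monocyte sum of their group (7249, 9618 and 1830 CPM). In Ly6Clo MHCIIlo, ko replicate 3 had the lowest monocyte sum (1585 CPM) and the highest neutrophil sum (27970 CPM) of its group. The part of these sums in the gene levels was not tested.

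Within the path that leads to these genes, the interferons themselves gave few counts. Of 11 interferon genes listed, 2 were in the table and neither passed the count filter in any comparison: Ifnb1 had 5 counts in 5 of the 39 replicates, and Ifng 39 counts in 14. The receptor chains were measured in every population. Ifnar1 was at 128 ± 46.6 CPM in Ly6Chi MHCIIhi, 132 ± 31.4 CPM in Ly6Chi MHCIIlo, 148 ± 28.8 CPM in Ly6Clo MHCIIhi and 115 ± 35.4 CPM in Ly6Clo MHCIIlo, and Ifnar2 was at 129 ± 70.3, 152 ± 47.8, 141 ± 29.9 and 97.0 ± 32.5 CPM in the same order.

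Signalling genes were lower in Ly6Clo MHCIIlo than in Ly6Chi MHCIIlo where they passed, 4 of 12 tested and none higher. Among all 4336 genes tested 37.4% passed, 788 lower and 835 higher. The shares that passed in this list and among the sensing genes below were near that. Socs3, a feedback inhibitor of cytokine signalling, stood at 2075 ± 642 CPM in Ly6Chi MHCIIlo and 695 ± 109 CPM in Ly6Clo MHCIIlo (log2 difference -1.40 ± 0.15, edgeR adjusted p = 6.884e-08). Stat2, a transcription factor activated by type I interferon, was lower, with a log2 difference of -1.01 ± 0.28 (edgeR adjusted p = 0.00591), and so was Ifngr1, a chain of the interferon gamma receptor, at -0.57 ± 0.16 (edgeR adjusted p = 0.00515). Of the nucleic acid sensing genes 3 of 8 passed, all lower: Samhd1, which breaks down nucleotides, at -1.42 ± 0.21 (edgeR adjusted p = 6.512e-06), Irf5 at -0.60 ± 0.13 (edgeR adjusted p = 0.00107) and the adaptor Myd88 at -0.71 ± 0.19 (edgeR adjusted p = 0.00421).

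Antiviral effector genes moved most often in that comparison, 15 of 24 lower and 2 higher. Ifi27l2a, an interferon-induced mitochondrial protein, was at 1917 ± 528 CPM in Ly6Chi MHCIIlo and 218 ± 94.1 CPM in Ly6Clo MHCIIlo (log2 difference -2.99 ± 0.20, edgeR adjusted p = 2.713e-11). Ifitm6 and Ly6e, a membrane-anchored relative of Ly6C, were lower, with log2 differences of -2.45 ± 0.24 and -1.28 ± 0.12 (edgeR adjusted p = 1.289e-08 and 1.098e-08). The 2 that were higher, as Bst2 was, were Lgals3bp, a secreted galectin-binding protein (1.91 ± 0.19, edgeR adjusted p = 1.78e-08), and Ifi27 (1.12 ± 0.26, edgeR adjusted p = 0.00164). Among genes that lean to interferon gamma 5 of 13 were lower and none higher, with Gbp5, a guanylate-binding protein, at -2.47 ± 0.59 (edgeR adjusted p = 0.00184) and the chemokine Cxcl10 at -2.14 ± 0.49 (edgeR adjusted p = 0.00128). In all, 26 of 55 tested genes of the path were lower and 2 higher, with a median log2 difference of -0.60, beside 18.2% lower, 19.3% higher and a median of 0.05 over all genes tested. The count filter favoured the lower direction, since 58 path genes passed it within Ly6Chi MHCIIlo cells and 36 within Ly6Clo MHCIIlo cells. Over all genes it was 3966 and 3182. Replicate totals ran from 222560 to 388815 counts in Ly6Chi MHCIIlo and from 139098 to 248593 in Ly6Clo MHCIIlo, and the part of depth was not tested. Stat2, Gbp5 and many of the lower antiviral effectors passed it only within the Ly6Chi cells. Their direction was thus partly set by the filter, a limit that can also apply to the other population comparisons.

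**Figure D4:**
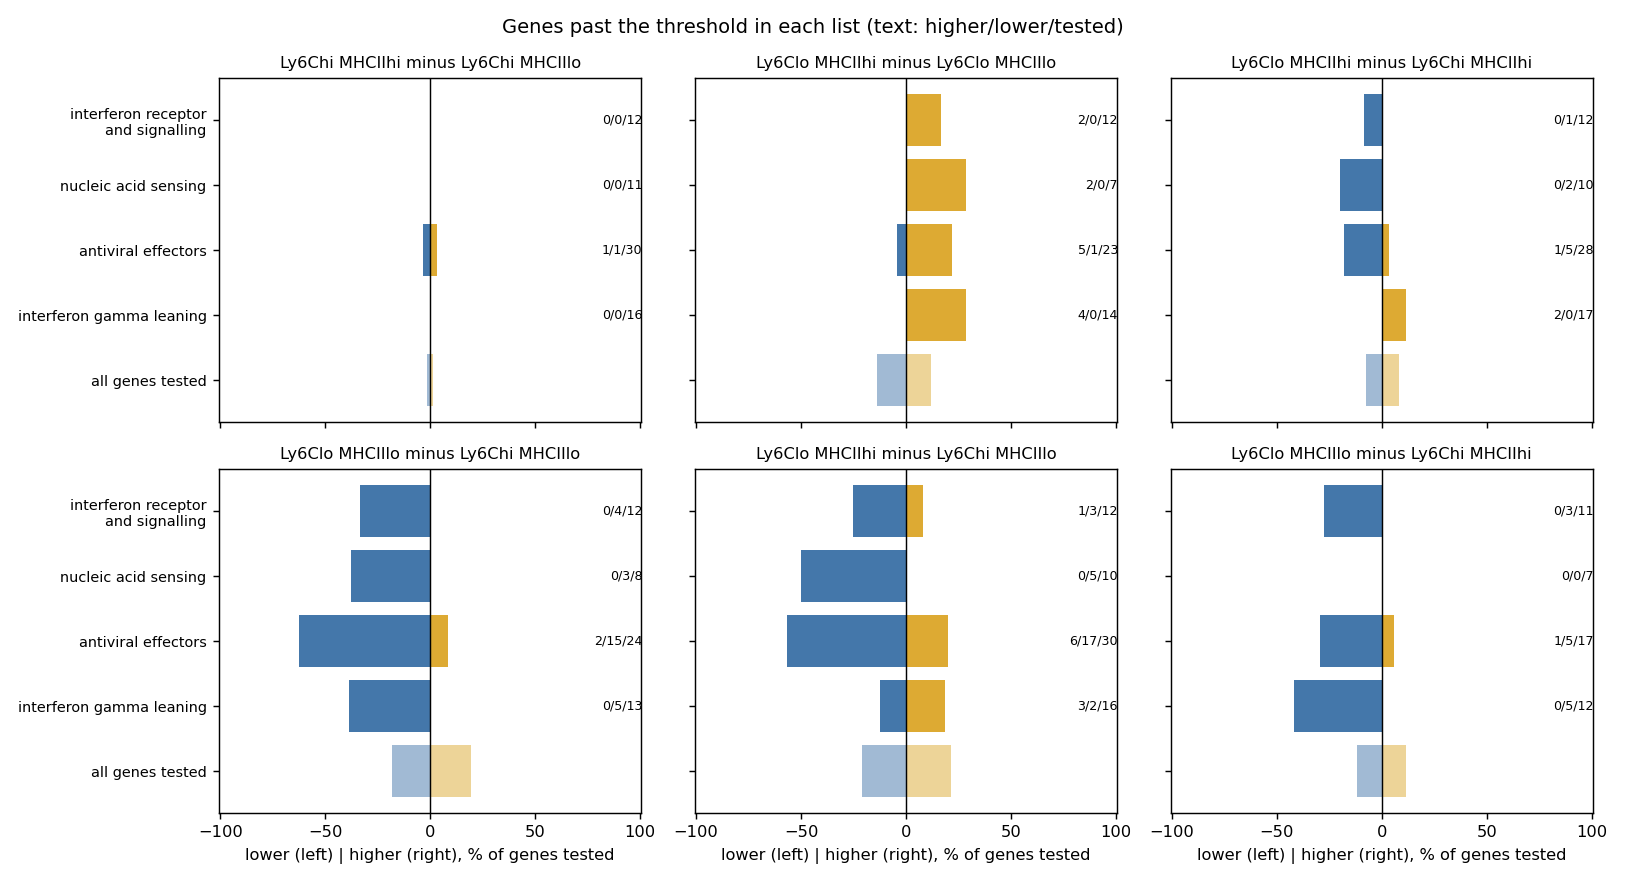
Percent of tested genes past an edgeR adjusted p of 0.05 in each comparison of populations, higher to the right and lower to the left, for 4 lists of genes of the interferon path and for all genes; the text gives higher, lower and tested. In Ly6Clo MHCIIlo minus Ly6Chi MHCIIlo the antiviral effectors show 15 lower and 2 higher of 24, and many of the lower ones passed the count filter only through the Ly6Chi cells.

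Between the Ly6Clo populations, MHCIIhi minus MHCIIlo, 13 of 54 path genes were higher and 1 lower (median log2 difference 0.37, beside 11.9% higher, 13.6% lower and a median of -0.01 over all genes). Here the count filter favoured the higher direction. It kept 55 path genes within Ly6Clo MHCIIhi cells and 36 within Ly6Clo MHCIIlo cells, beside 5660 and 3182 of all genes. Epsti1 and Gbp3, both among the higher genes, passed it only within the MHCIIhi cells. Ciita, the master regulator of MHC class II genes, led the interferon gamma list at 2.33 ± 0.24 (edgeR adjusted p = 2.066e-08), in cells that had been sorted on MHC class II. Ifi27l2a was higher by 1.27 ± 0.19 (edgeR adjusted p = 1.105e-05), Ifitm1 by 1.31 ± 0.21 (edgeR adjusted p = 3.894e-05) and Ifitm2 by 0.87 ± 0.12 (edgeR adjusted p = 4.056e-06), while Ifitm6 was lower, at -0.67 ± 0.24 (edgeR adjusted p = 0.0360). The Ifitm6 call was lost in 8 of 24 cases in which 1 replicate was left out, and without Ly6Clo MHCIIlo ko replicate 4 it was -0.36 (edgeR adjusted p = 0.274).

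Against Ly6Chi MHCIIlo, the Ly6Clo MHCIIhi cells had 27 of 66 path genes lower and 10 higher (median -0.35, beside 21% lower, 21.3% higher and a median of 0.0057 over all genes). Ifitm6 fell from 706 ± 233 to 80.7 ± 27.2 CPM (log2 difference -3.16 ± 0.18, edgeR adjusted p = 4.266e-15) and Samhd1 from 988 ± 268 to 269 ± 130 CPM (-1.86 ± 0.19, edgeR adjusted p = 1.588e-09). Lgals3bp rose by 1.99 ± 0.16 (edgeR adjusted p = 1.87e-11), Ifitm1 by 1.70 ± 0.20 (edgeR adjusted p = 5.244e-08) and Ciita by 2.09 ± 0.25 (edgeR adjusted p = 4.571e-08). In Ly6Clo MHCIIhi minus Ly6Chi MHCIIhi 8 of 65 were lower and 3 higher, beside 7.45% lower and 8.3% higher of all genes. In Ly6Clo MHCIIlo minus Ly6Chi MHCIIhi 11 of 45 were lower and 1 higher, beside 11.8% and 11.6%. In Ly6Chi MHCIIhi minus Ly6Chi MHCIIlo it was 1 of 67 each way, beside 1.53% lower and 1.32% higher (Ifitm1 higher at 1.20 ± 0.31, Ifitm6 lower at -1.41 ± 0.36, edgeR adjusted p = 0.0442 and 0.0377). Those calls were lost in 12 and 10 of the 15 cases in which 1 replicate was left out, with edgeR adjusted p up to 0.189 and 0.105. For ko minus ctrl 0 of 45, 58, 55 and 36 path genes passed by edgeR in Ly6Chi MHCIIhi, Ly6Chi MHCIIlo, Ly6Clo MHCIIhi and Ly6Clo MHCIIlo, and 0 by DESeq2 in each, with 4, 3, 4 and 0 at an unadjusted p under 0.05, where 6.98, 11.2, 5.23 and 4.27% of all genes had one.

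Over the 39 replicates, Zbp1 and Ifitm3 were the closest pair, with a Pearson correlation of log2(CPM + 1) of 0.879. Irf7 and Isg15 were each closest to Zbp1 (0.842 and 0.832), and Oasl2 to Irf7 (0.555). Bst2 had no positive correlation with any of the other 5, from -0.147 with Zbp1 to -0.286 with Irf7. After the mean of each of the 8 groups was taken off, Isg15, Irf7 and Ifitm3 remained closest to Zbp1, at 0.751, 0.688 and 0.67, and Bst2 was closest to Ifitm3 at 0.274. These are descriptions over replicates that share populations, barcodes and depth.

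**Figure D5:**
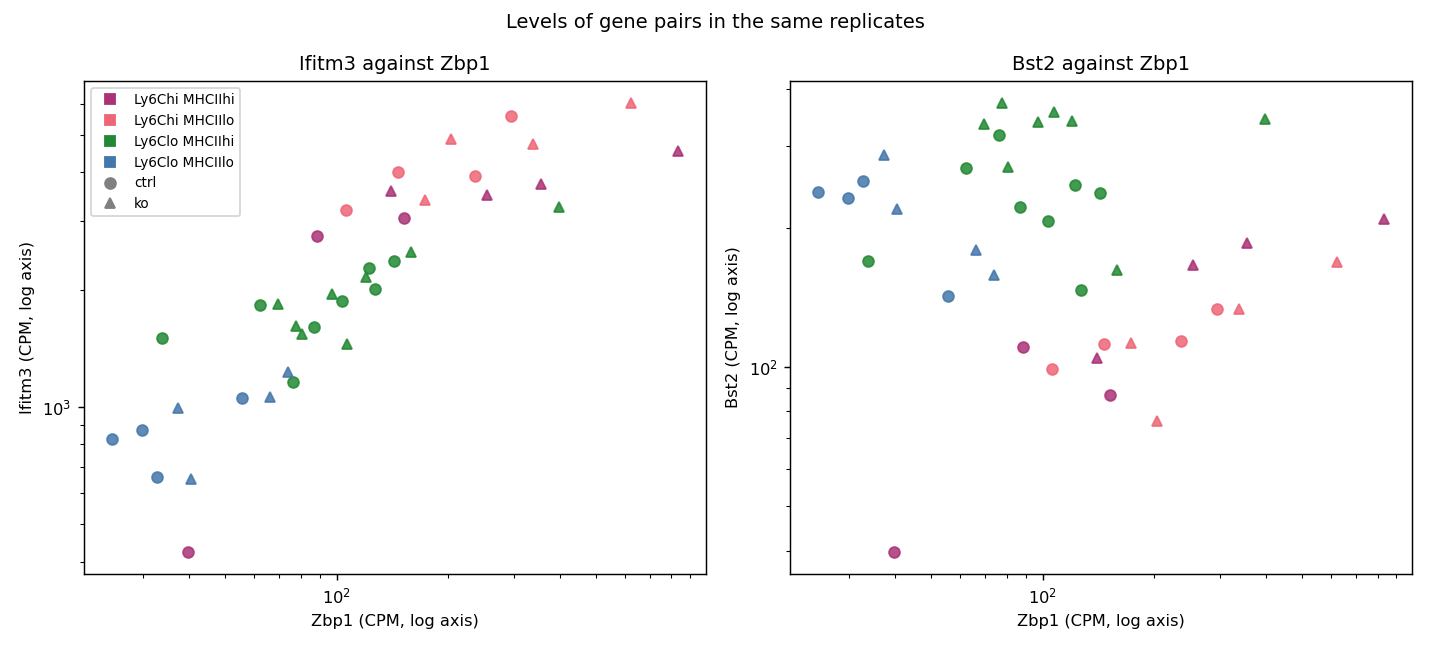
Level in CPM of Ifitm3 against Zbp1 and of Bst2 against Zbp1 in the 39 replicates, on log axes, coloured by population (circles ctrl, triangles ko). Ifitm3 rises with Zbp1 across populations (Pearson correlation of log2(CPM + 1) 0.879), while Bst2 does not (-0.147).

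Among 5338 other genes with a mean of at least 20 CPM, those most like the mean of the 6 scaled genes were Tspo, a protein of the outer mitochondrial membrane (0.858), the histone gene H3f3b (0.827), the guanylate-binding protein gene Gbp2 (0.821), the lysosomal amidase gene Naaa (0.813) and the transcription factor gene Klf4 (0.806). Tspo had the population order of Ifitm3, at 1484 ± 294 CPM in Ly6Chi MHCIIlo, 1258 ± 528 CPM in Ly6Chi MHCIIhi, 771 ± 170 CPM in Ly6Clo MHCIIhi and 555 ± 74.1 CPM in Ly6Clo MHCIIlo. With group means taken off, the closest genes included Gbp2 again (0.846), the Fc receptor gene Fcgr4 (0.869), Samhd1 (0.857) and Gbp7 (0.846). Samhd1, Gbp7 and Gbp2 are in the lists of the interferon path, and Fcgr4 is not.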

How the data were processed

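The authors deposited 1 table of counts per gene for 48 libraries of bulk 3′ poly(A) RNA-seq. Per the submitters' processing notes, R 3.4.4, DESeq2 1.18.1 and the GRCm38 genome were used. Aligner, counting tool, strand setting and whether a count is a read or a molecule: not given in the sources used here. The row that names no gene held 127 counts (0.000967%) and was left out.

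Libraries below 0.1 times the median total (280060.5 counts) were left out, which removed 1, and the libraries of each replicate were added, giving 39 replicates of 34362 to 891461 counts. Levels are CPM over the replicate's total scaled by its TMM factor, so they differ from the count divided by the total. Tests used edgeR 4.0.16 in R 4.3.3: TMM scaling, filterByExpr (minimum count 10, minimum total 15), quasi-likelihood F tests and Benjamini-Hochberg adjustment over all genes tested, with calls at an adjusted p under 0.05. Genotype was compared within each of the 4 populations, populations with genotype in the model, and the difference of genotype effects by an interaction over the 8 groups. Genes under the count filter had a two-sided exact permutation test of log2(CPM + 1). The code was tested on simulated data.

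The members and gene lists were chosen with earlier results of these data known. All 6 members are named. From the other lists, up to 3 genes per list and direction with the smallest p past the threshold were eligible, and the 5 genes most like the members' scaled mean among genes of at least 20 CPM. One gene that this rule selects is not reported here. Ifnar1 and Ifnar2 were named for their role, after their values were seen. The marker lists served only for summed levels. The study's own comparison is of genotype, so that was fitted without a block for replicate number, which the labels do not tie to mice. Alternatives were DESeq2 1.42.0 (test and size factors), no count filter, all or only deeper libraries, libraries kept apart, 1 fit for the 8 groups with or without barcode class, 1 genotype alone, a replicate block and leaving out each replicate. Leaving out Ly6Chi MHCIIhi ctrl replicate 1 together with the block was added after seeing the data. Gene positions are from the GENCODE annotation of GRCm38, and promoter windows from RefSeq (GRCm38.p6).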

Additional observations from a re-analysis of the deposited data

Results flagged for a closer look

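In 2 of 42 combinations of gene and group, the gap between the farthest replicate and its nearest neighbour was too large a share of the group's range under Dixon's test at the 95% level, which chance alone gives in about 1 in 20 groups. Irf7 was at 73.7 CPM in Ly6Clo MHCIIlo ko replicate 3, with a gap of 0.836 of the range, while the other 3 replicates lay between 36.5 and 42.6 CPM. Zbp1 was at 397.4 CPM in Ly6Clo MHCIIhi ko replicate 5, with a gap of 0.728 of the range among 8 replicates whose median was 102 CPM.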

How the results depend on the processing

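The counts of the 6 genes past the threshold stayed within 1.5 times the reported count in 117 of 123 combinations of comparison and alternative, leaving out single replicates aside. The causes of the exceptions were not tested. For ko minus ctrl in Ly6Chi MHCIIhi it was 1 gene (Zbp1) in place of 0 with no count filter. For Ly6Clo MHCIIhi minus Ly6Clo MHCIIlo it was 1 in place of 3 among ko replicates alone. For Ly6Clo MHCIIhi minus Ly6Chi MHCIIhi it was 3 in place of 5 with the 8 groups in 1 fit, and again with a replicate block. Among ctrl replicates alone, where fewer replicates were compared, it was 1 in place of 5. This held for the same comparison and for Ly6Clo MHCIIlo minus Ly6Chi MHCIIhi. Depth limited Oasl2 most, with 10 counts over the 3 Ly6Chi MHCIIhi ctrl replicates, where it was under the count filter. What size of difference could be detected there was not computed.

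With a replicate block, Ly6Clo MHCIIhi minus Ly6Chi MHCIIhi kept 3 of 5 calls (Irf7 adjusted p = 0.119 and Ifitm3 adjusted p = 0.102), the count over all genes going from 873 to 445. It ended the Oasl2 call in Ly6Clo MHCIIhi minus Ly6Chi MHCIIlo (adjusted p = 0.113), gave one in Ly6Clo MHCIIlo minus Ly6Chi MHCIIlo (adjusted p = 0.0174) and changed no other call of the 6 genes. The block moved the count over all genes from 1229 to 712 in Ly6Clo MHCIIhi minus Ly6Clo MHCIIlo and from 1 to 4 for ko minus ctrl in Ly6Clo MHCIIlo. In no comparison did every same-numbered pair exceed a correlation of 0.1, so the numbers were not taken to pair the samples, though all correlations were above 0 between the Ly6Chi populations (7 pairs, 0.0301 to 0.183), between the MHCIIlo populations (8 pairs, 0.0115 to 0.2) and in Ly6Clo MHCIIlo minus Ly6Chi MHCIIhi (7 pairs, 0.00771 to 0.0598). Of the replicates, 12 of 14 correlated best with their own number between the Ly6Chi populations and 11 of 16 between the MHCIIlo populations. In Ly6Clo MHCIIlo minus Ly6Chi MHCIIhi it was 10 of 14. Against Ly6Clo MHCIIhi it was 2 of 16 for Ly6Clo MHCIIlo, 3 of 14 for Ly6Chi MHCIIhi and 3 of 16 for Ly6Chi MHCIIlo. These matches are a hint from the data and not the design.

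Signs turned only for differences that did not pass in either setting. Under the block, Isg15 for ko minus ctrl in Ly6Chi MHCIIhi was -0.1133. With barcode class in the model, Bst2 for ko minus ctrl in Ly6Chi MHCIIlo was -0.05219. For Ly6Chi MHCIIhi minus Ly6Chi MHCIIlo, Zbp1 was 0.08075 with deeper libraries only and 0.2402 among ko replicates, and Bst2 was -0.006399, -0.02197 and -0.02212 in the fits of 8 groups (libraries added, libraries apart, barcode class) and -0.3374 among ctrl replicates. For Ly6Clo MHCIIhi minus Ly6Clo MHCIIlo, Oasl2 was -0.01969 with DESeq2, -0.05798 with the first library only and -0.05155 among ko replicates, and Bst2 was -0.02255 among ctrl replicates.

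Leaving out each replicate gave 1 to 5 genes for Ly6Clo MHCIIhi minus Ly6Chi MHCIIhi, 2 to 3 for Ly6Clo MHCIIhi minus Ly6Clo MHCIIlo, 4 to 6 for Ly6Clo MHCIIhi minus Ly6Chi MHCIIlo, 5 to 6 for Ly6Clo MHCIIlo minus Ly6Chi MHCIIlo (Oasl2 passed in 3 of 16 cases, lowest adjusted p = 0.0277) and 4 to 5 for Ly6Clo MHCIIlo minus Ly6Chi MHCIIhi. Uncalled differences that changed sign ranged, for ko minus ctrl, from -0.4095 to 0.6542 (Isg15) in Ly6Chi MHCIIhi, from -0.3706 to 0.01786 (Irf7), -0.117 to 0.2671 (Bst2) and -0.2185 to 0.5738 (Oasl2) in Ly6Chi MHCIIlo, from -0.1745 to 0.4967 (Isg15) and -0.02353 to 0.6403 (Zbp1) in Ly6Clo MHCIIhi, and from -0.2386 to 0.04117 (Bst2) and -0.001658 to 1.134 (Oasl2, log2(CPM + 1)) in Ly6Clo MHCIIlo. For Ly6Chi MHCIIhi minus Ly6Chi MHCIIlo they ranged from -0.1102 to 0.6567 (Isg15) and -0.5198 to 0.1638 (Zbp1), for Ly6Clo MHCIIhi minus Ly6Clo MHCIIlo from -0.216 to 0.2802 (Oasl2), and between barcode classes from -0.1377 to 0.1359 (Isg15), -0.005771 to 0.07655 (Bst2) and -0.02199 to 0.08088 (Ifitm3). Over all genes, ko minus ctrl gave 112 (besides Zbp1), 61, 57 and 24 calls with no count filter in Ly6Chi MHCIIhi, Ly6Chi MHCIIlo, Ly6Clo MHCIIhi and Ly6Clo MHCIIlo in place of 0, 3, 0 and 1, and 4, 11, 0 and 2 with DESeq2.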
